A study of Mus musculus with 9 samples.

Results

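A set of 10 genes of the endoplasmic reticulum (ER) stress response were followed in mouse hippocampus: Hspa5, Ddit3, Herpud1, Atf4, Xbp1, Atf6, Ern1, Eif2ak3, Dnajb9 and Hsp90b1. They were picked by gene symbol, and all 10 were among the 54532 genes listed in each expression table. Ddit3 had 2 rows, and its second row, a gene model of 105 bases that was at 0 in every sample, was not used. Bulk RNA sequencing covered 9 hippocampus samples, 3 for each of 3 groups. The Con group was kept on standard diet and carries the genotype label WT. HMD mice ate a high-methionine diet, which raises the amino acid homocysteine, for 8 weeks or more. Bet+HMD mice ate the high-methionine diet for 8 weeks and then had betaine, a methyl donor that turns homocysteine back into methionine, at 2.5% w/v in the drinking water for 2 weeks. Whether they stayed on the diet during those weeks is not given in the sources used here. All mice were C57BL/6 males of 6 to 8 weeks at purchase per the labels, although the strain field of 2 Bet+HMD samples reads C57BL/7 and C57BL/8, and the methods of the study speak of females. Nothing says that each sample was a separate animal, so p-values measure only the spread between these samples, which may be technical.

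Proteins that enter the secretory pathway fold in the ER with the help of chaperones. When unfolded proteins build up there, 3 membrane sensors start the unfolded protein response. Ern1 encodes IRE1, a kinase and endonuclease that splices the Xbp1 message. Eif2ak3 encodes PERK, a kinase that slows translation by phosphorylating eIF2α and thereby favours translation of Atf4. Atf6 encodes a transcription factor that is cut free from the membrane. Their targets include chaperones, genes that remove misfolded proteins and, under lasting stress, Ddit3 (CHOP), a transcription factor linked to cell death. Much of this signalling runs through splicing, phosphorylation and cleavage, which a gene-level RNA count does not measure. Herpud1 was first named for its induction by homocysteine, the metabolite that this diet raises.

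The binding elements of these factors were looked up in RefSeq promoter windows of build GRCm38.p6, which run from 250 bases before to 50 bases after a gene start. A window was found for 9 of the 10 genes, all but Atf6. The ER stress response element (ERSE), bound by ATF6 with NF-Y, was read as CCAAT and CCACG with 9 bases between, on either strand. It lay in the windows of Hspa5 and Hsp90b1, against 0.119% of all 32851 windows. The sites are shown because Hsp90b1 was called higher in Bet+HMD than in HMD and Hspa5 was not called. Capitals mark the element.
Hspa5, chr2:34772020-34772048, + strand: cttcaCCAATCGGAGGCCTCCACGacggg
Hsp90b1, distal, chr10:86705633-86705661, - strand: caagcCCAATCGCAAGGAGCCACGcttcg
Hsp90b1, proximal, chr10:86705528-86705556, - strand: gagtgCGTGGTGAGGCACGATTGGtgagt
The proximal Hsp90b1 site is the element read on the other strand. The Hspa5 site ended 47 bases before the RefSeq start, but inside the gene model of the deposited tables, which starts at position 34771970.

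Herpud1 carried the second form, ERSE-II, which is ATTGG, any base and CCACG, against 0.0365% of windows. It also held TGATGNAA, an element bound by ATF4 with C/EBP partners, which occurred in 3.97% of windows. The 250 bases before its RefSeq start, chr8:94386179-94386428 on the + strand, are given because Herpud1 was the member called against both other groups in the Bet+HMD samples, with both elements in capitals, the first of them on the opposite strand.
Herpud1: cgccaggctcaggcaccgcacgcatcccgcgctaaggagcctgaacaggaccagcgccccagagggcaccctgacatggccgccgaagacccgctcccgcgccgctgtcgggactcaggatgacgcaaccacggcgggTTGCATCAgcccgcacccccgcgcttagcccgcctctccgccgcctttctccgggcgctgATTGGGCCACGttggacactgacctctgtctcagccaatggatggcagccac
The XBP1-type element TGACGTGG was in 0 of the 9 windows and in 0.676% of all windows. Dnajb9, Xbp1, Atf4, Ddit3, Ern1 and Eif2ak3 held none of the 4 strings, which says only that these letters are not in those windows. No binding was measured, so a match is a description of sequence.

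**Figure D1:**
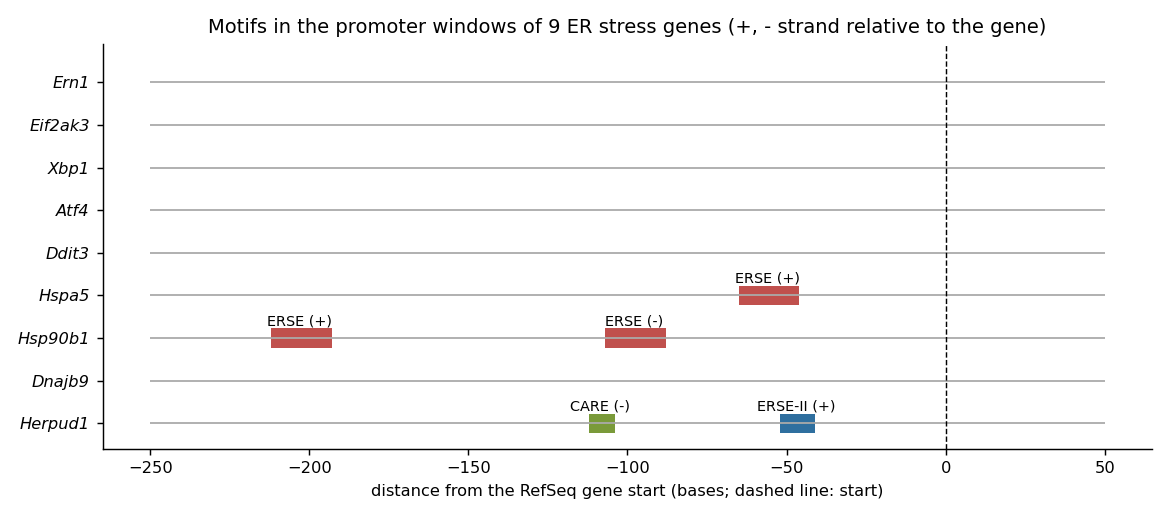
Position of the 4 searched strings in the promoter windows of 9 ER stress genes, in bases from the RefSeq start (dashed line). Boxes mark matches, with the strand relative to the gene. Hspa5 and Hsp90b1 carry ERSE, Herpud1 carries ERSE-II and the ATF4-type element (CARE), and the other 6 windows are empty.

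Expression came in 2 tables, an earlier one with Con and HMD and a later one with all 3 groups. Values are FPKM, which divides a gene's reads by its length and by a library size factor, so levels of different genes can be set side by side. The size factor recovered from the values was not the total of reads on genes. In the later table its ratio to that total was 1.042 to 1.049 in Bet+HMD and 0.953 to 1.026 in Con and HMD. A larger factor gives lower FPKM for the same share of reads. Reads on genes numbered 16449388 to 18566712 per library (earlier) and 16031464 to 18291952 (later). The Bet+HMD libraries stood apart. They had reads on 25315 to 25663 genes, against 20816 to 23272 in the Con and HMD libraries, and they occur in the later table only, so betaine and a difference between sequencing rounds cannot be told apart. Markers of hippocampal neurons summed to 226 to 237 FPKM in Con and 179 to 220 FPKM in HMD, and none of the 9 was at 0. Thalamic markers summed to 13.6 to 17.7 FPKM in Con and 23.7 to 83.2 FPKM in HMD, without overlap. Endothelial markers summed to 47.7 to 49.3 FPKM in Con and 41.3 to 42.5 FPKM in HMD, and blood markers to 98.0 to 147 and 147 to 230 FPKM. The part of these cells in the results was not tested. In bulk tissue, fewer cells of a type and less RNA per cell cannot be told apart.

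In Con hippocampus the chaperones Hspa5 and Hsp90b1 were the most abundant members and the sensors Eif2ak3 and Ern1 the least. Mean levels were 54.2 ± 6.06 FPKM (SD, n = 3) for Hspa5 and 49.4 ± 6.66 for Hsp90b1, whose samples overlapped. Atf4 followed at 30.9 ± 8.11 FPKM, then Dnajb9 at 25.8 ± 6.50, Xbp1 at 20.3 ± 3.84, and Herpud1 at 17.9 to 21.9 over its 3 samples. Neighbours in that stretch of the order lay within their spread. Atf6 stood at 10.6 ± 0.534 FPKM, Ddit3 at 7.59 ± 1.59, Eif2ak3 at 3.87 ± 0.181 and Ern1 at 1.78 ± 0.229. Between 137 and 4194 reads lay behind each value of a member over both tables.

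**Figure D2:**
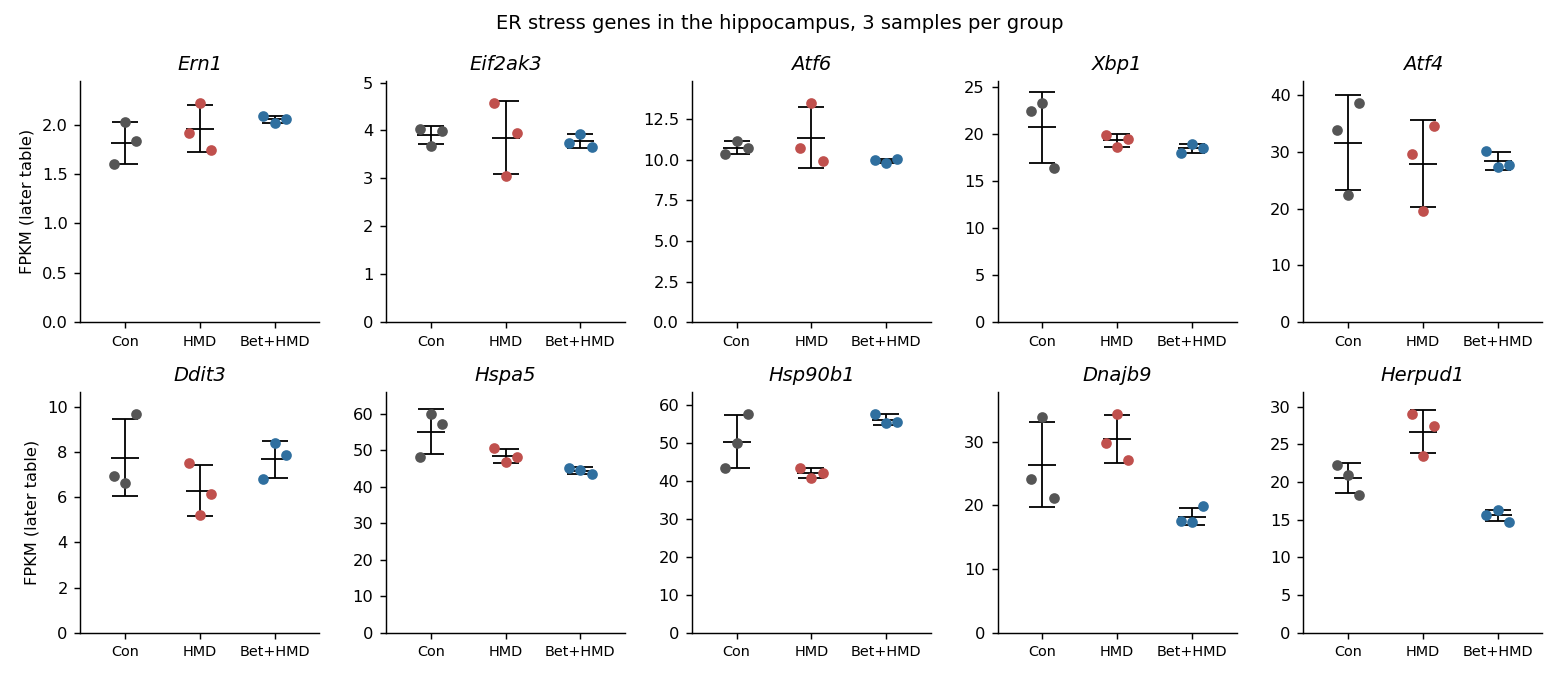
FPKM of the 10 ER stress genes in each of the 9 samples of the later table, from 0 upwards on a linear axis. Points are samples, bars the mean ± SD (n = 3). Herpud1 is highest in HMD and lowest in Bet+HMD, and the Hsp90b1 values of HMD all lie under those of Bet+HMD.

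The first comparison, HMD against Con, asks what the diet did. Herpud1 was the member with the largest difference, higher in every HMD sample than in any Con sample, but it did not pass the test across genes. The other 9 members overlapped between the groups, and the chaperones Hspa5 and Hsp90b1 had lower means in HMD. Of 12989 genes tested by limma, 0 had an adjusted p under 0.05 (0%), and 0 also by limma-voom on the recovered reads. At an unadjusted p under 0.05 there were 4.56% of all genes and 1 of the 10 members, Herpud1. Groups did not overlap for 9.37% of all genes and for the same 1 member.

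The sensors were close to level between Con and HMD. Ern1 read 1.55, 2.00 and 1.78 FPKM in Con and 1.89, 2.20 and 1.77 in HMD. The log2 difference was 0.09 ± 0.13 (SE). Here and throughout, fold changes are on the log2(FPKM + 1) scale, which understates the change of low genes. Eif2ak3 differed by -0.05, with a 95% interval of -0.38 to 0.29, and Atf6 by 0.06, with an interval of -0.24 to 0.36. These intervals leave room for modest differences in either direction.

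The transcription factors had lower HMD means within wide spreads. Ddit3 read 6.78, 6.56 and 9.41 FPKM in Con and 7.35, 5.03 and 5.98 in HMD, which is -0.27 on the log2 scale (interval -0.67 to 0.13). The Con and HMD samples overlapped. Ddit3 lies over the antisense gene Mars, and whether the counting used strand is not given in the sources used here, so reads of the pair may be mixed. Atf4 ran from 21.9 to 37.7 FPKM in Con and from 19.3 to 34.6 FPKM in HMD. Xbp1 had a log2 fold change of -0.09, and Atf4 of -0.15.

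Among the chaperones, Hspa5 (BiP, the main Hsp70 of the ER lumen) read 47.5, 59.3 and 55.8 FPKM in Con and 49.98, 45.8 and 47.0 in HMD. The log2 fold change came to -0.18 (interval -0.46 to 0.10). The first Con sample lay among the HMD values. Hsp90b1 (GRP94, the Hsp90 of the ER) read 42.8, 49.4 and 56.1 FPKM in Con and 43.1, 40.2 and 41.4 in HMD, with a log2 fold change of -0.24 (interval -0.53 to 0.06). Here too a Con sample lay among the HMD values. Dnajb9 (ERdj4, a co-chaperone of BiP) read 23.7, 33.1 and 20.7 FPKM in Con and 29.9, 33.4 and 26.6 in HMD, which is 0.23 on the log2 scale (interval -0.20 to 0.65).

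Herpud1, a membrane protein of the complex that sends misfolded proteins to the proteasome, read 21.9, 20.4 and 17.9 FPKM in Con. In HMD it read 28.6, 23.0 and 27.3 FPKM, all above Con. The ratio of means was 1.31 and the log2 fold change 0.37 ± 0.13 (SE), with a 95% interval of 0.08 to 0.67. The unadjusted limma p was 0.0207 and the adjusted p 0.980, so the difference did not pass over all genes tested. Leaving out each library in turn kept the log2 fold change between 0.30 and 0.46. The HMD sample with the highest thalamic marker sum, 83.2 FPKM, was also the one with the highest Herpud1 value. In Con the sample with the lowest thalamic sum, 13.6 FPKM, had the highest Herpud1 value, 21.9 FPKM. In Bet+HMD, in the later table, the sample with the lowest sum, 22.3 FPKM, also had the highest Herpud1 value, 16.3 FPKM. The part of thalamic tissue in the Herpud1 difference was not tested.

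The second comparison, Bet+HMD against HMD, asks how mice given betaine after the diet stood against mice on the diet. Herpud1 and Dnajb9 fell and Hsp90b1 rose, while the 3 sensors, the 3 transcription factors and Hspa5 did not pass the test. This has to be read against a transcriptome in which 48.3% of 13672 genes passed, 25.5% lower and 22.8% higher. Of the members 3 of 10 were called, 2 lower and 1 higher. Summed markers were lower in Bet+HMD without overlap for 7 of 10 lists. The FPKM of all genes also summed to less, 249135 to 258514 in Bet+HMD and 288439 to 307899 in Con and HMD. By gene, means were higher in Bet+HMD for 3 of 6 endothelial, 4 of 9 hippocampal, 2 of 6 neuronal and 2 of 6 astrocyte markers. Means were higher for 1 of 6 oligodendrocyte, 0 of 5 thalamic and 0 of 5 blood markers. Thalamic markers summed to 24.5 to 84.4 FPKM in HMD and 22.3 to 23.4 FPKM in Bet+HMD, blood markers to 149 to 233 and 72.2 to 122 FPKM, and astrocyte markers to 282 to 295 and 241 to 243 FPKM. The sums for neurons were 760 to 876 and 718 to 732 FPKM, for hippocampus 180 to 226 and 169 to 173, for endothelium 41.7 to 43.4 and 38.9 to 40.3, and for oligodendrocytes 752 to 1012 and 732 to 739 FPKM. The part of these cells in the differences was not tested. Groups did not overlap for 4 of 10 members and for 60.1% of all genes. The direction of calls over all genes hung on the scaling: 47.2% of calls were higher as deposited and 69.5% after rescaling to TPM, which moved the median of all genes from -0.03 to 0.16.

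Herpud1 in the later table read 29.1, 23.5 and 27.5 FPKM in HMD and 15.6, 16.3 and 14.8 in Bet+HMD. All Bet+HMD samples lay under all HMD samples. The mean was 1.71-fold lower, with a log2 fold change of -0.74 ± 0.09 (SE) and an adjusted limma p of 0.000826. Under 10 other settings and 6 fits without 1 library, it ran from -0.82 to -0.55 and passed each time.

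Dnajb9 read 29.8, 34.4 and 27.0 FPKM in HMD and 17.5, 17.4 and 19.8 in Bet+HMD. The groups were again apart, and the mean was 1.67-fold lower. The log2 fold change was -0.70 ± 0.10 (SE), with an adjusted limma p of 0.00155. Herpud1 and Dnajb9 are short genes, of 2333 and 2549 bases. Over protein-coding genes of 1500 to 3000 bases, 39.7% were called lower and 11.5% higher in this comparison, against 14.7% lower and 28.5% higher over genes of 6000 bases or more. The part of gene length in the result was not tested.

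Hsp90b1 went the other way. It read 43.5, 40.9 and 42.2 FPKM in HMD and 57.7, 55.2 and 55.4 in Bet+HMD, without overlap. The ratio of means was 1.33, the log2 fold change 0.40 ± 0.06 (SE) and the adjusted limma p 0.00204. It passed under the same 10 settings and 6 fits, between 0.38 and 0.71. Hsp90b1 overlaps the same-strand transcript Gm15344, which stood at 0.547 to 1.13 FPKM in HMD and 4.03 to 7.91 FPKM in Bet+HMD, so the assignment of reads between them is uncertain. Hsp90b1 has 4032 bases, and over protein-coding genes of 3000 to 6000 bases 28.7% were called lower and 18.6% higher.

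Hspa5 stayed near its HMD level, at 50.5, 46.7 and 48.0 FPKM in HMD and 45.2, 44.5 and 43.4 in Bet+HMD. The groups did not overlap, but the log2 fold change of -0.12 (interval -0.27 to 0.03) had an adjusted limma p of 0.154, and it turned to 0.07 with TPM and 0.16 with quantile normalization. Ddit3 had a log2 fold change of 0.26 (interval -0.05 to 0.57), and it passed only with TPM, at 0.48, and without the first HMD library, at 0.38. Ern1, Eif2ak3, Atf6, Xbp1 and Atf4 had log2 fold changes between -0.17 and 0.06. Atf4 ran from 27.4 to 30.2 FPKM in Bet+HMD and from 19.5 to 34.6 FPKM in HMD. Over the 3 samples of a group, 9 of 10 members had their smallest SD in Bet+HMD. This was not particular to the members. Across genes, the chi-square per degree of freedom between the reads of 2 libraries was 3.00 to 4.21 in Bet+HMD. It was 11.8 to 22.2 in HMD and 22.8 to 42.2 in Con. The p-values of the betaine comparisons rest on these unequal spreads.

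**Figure D3:**
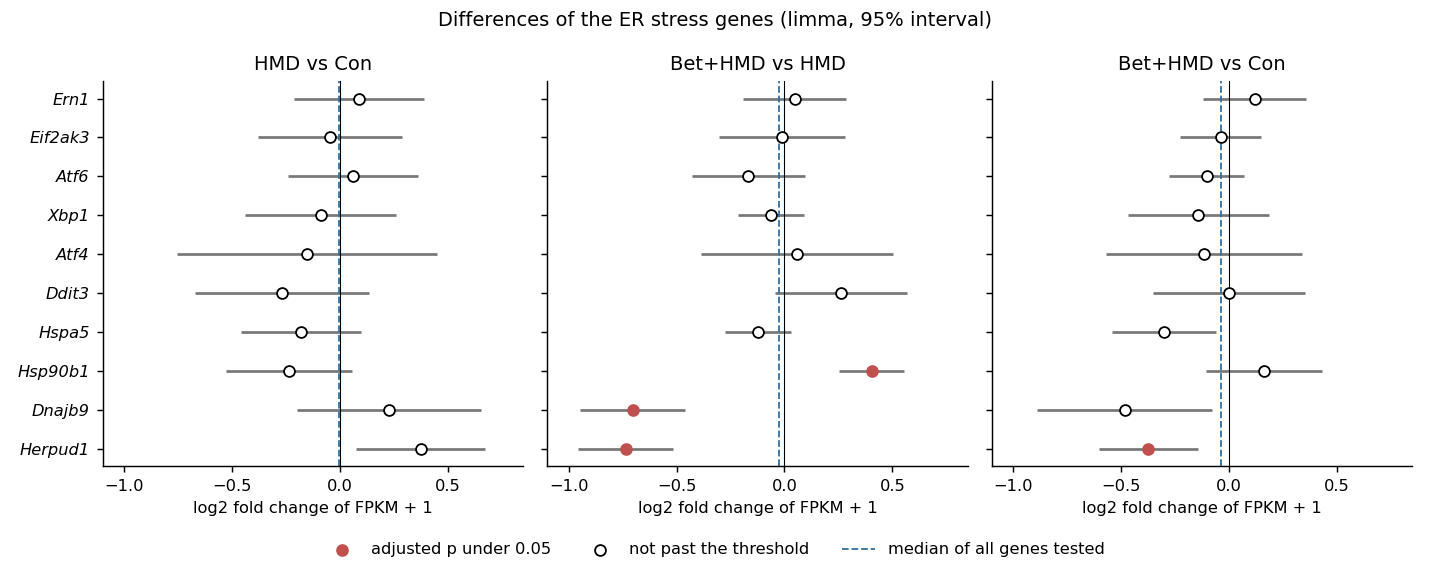
Log2 fold changes of FPKM + 1 for the 10 ER stress genes in 3 comparisons, with 95% intervals from limma. Red points passed an adjusted p of 0.05, open points did not, and the dashed line is the median of all genes. Herpud1, Dnajb9 and Hsp90b1 are red in Bet+HMD vs HMD, Herpud1 alone in Bet+HMD vs Con.

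The third comparison, Bet+HMD against Con, asks how the betaine group stood against the standard diet. Herpud1 was lower than in Con as well, and it was the 1 member of 10 called, where 39.7% of 13643 genes were called and 20.4% were called lower. Hspa5 and Dnajb9 fell short of the threshold. Groups did not overlap for 4 of 10 members, Herpud1, Dnajb9, Hspa5 and Atf6, each lower in Bet+HMD, and for 55.1% of all genes. The FPKM of all genes summed to 249135 to 258514 in Bet+HMD and 288439 to 307899 in Con and HMD. Summed markers did not overlap for 6 of 10 lists, 5 of them lower in Bet+HMD. Those for hippocampus were 228 to 244 FPKM in Con and 169 to 173 FPKM in Bet+HMD, for neurons 737 to 847 and 718 to 732, for astrocytes 289 to 297 and 241 to 243, for microglia 70.9 to 88.1 and 60.9 to 64.7, and for endothelium 48.5 to 50.4 and 38.9 to 40.3 FPKM. Thalamic markers were higher, at 13.8 to 18.0 FPKM in Con and 22.3 to 23.4 FPKM in Bet+HMD. The part of these cells was again not tested. Of the calls over all genes 48.8% were higher as deposited and 73.5% with TPM, which moved the median of all genes from -0.04 to 0.17.

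Herpud1 had a mean of 20.5 ± 2.02 FPKM in Con and 15.6 ± 0.770 FPKM in Bet+HMD (SD, n = 3 each). The log2 fold change was -0.37 ± 0.10 (SE), with an adjusted limma p of 0.0215. Among the scalings, the call was lost with TPM, at -0.17, and with quantile normalization, at -0.20. It was also lost without any single Bet+HMD library, at -0.41 to -0.34, and without the first Con library, at -0.31. Hspa5 had means of 55.1 ± 6.21 and 44.4 ± 0.925 FPKM, with a log2 difference of -0.30 ± 0.10 (SE) and an adjusted limma p of 0.0537. It passed without the first Con library, at -0.39, and with all 3 groups in one fit, and it turned to 0.03 with quantile normalization.

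Dnajb9 had means of 26.4 ± 6.68 FPKM in Con and 18.2 ± 1.38 FPKM in Bet+HMD, with a log2 difference of -0.48 ± 0.17 (SE) and an adjusted limma p of 0.0599. It passed without the third Con library, at -0.62, with all 3 groups in one fit, and with a filter of 50 mean reads per gene, added after the data were seen. Hsp90b1 overlapped between the groups, with 43.5, 50.1 and 57.5 FPKM in Con and a log2 fold change of 0.16 (interval -0.11 to 0.43). Without the third Con library it passed, at 0.26, and it passed with TPM, at 0.38, and with quantile normalization, at 0.51. Ddit3 had a log2 fold change of 0.00, and Ern1, Eif2ak3, Atf6, Xbp1 and Atf4 lay between -0.14 and 0.12. Xbp1 passed without the third Con library, at -0.30, and Atf4 without the second, at -0.34.

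Herpud1 therefore had log2 fold changes of 0.37 in HMD against Con, -0.74 in Bet+HMD against HMD and -0.37 in Bet+HMD against Con. These comparisons share their samples, so they are not separate pieces of evidence.

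Ratios within a library, chosen after the values were seen, do not depend on library scaling and show how the members moved against each other. Herpud1 per Hspa5 was 0.321 to 0.464 in Con, 0.504 to 0.576 in HMD and 0.340 to 0.366 in Bet+HMD in the later table. The HMD libraries stood above both other groups, and Bet+HMD lay within the range of Con. Dnajb9 per Hspa5 was 0.370 to 0.565 in Con, 0.563 to 0.736 in HMD and 0.387 to 0.457 in Bet+HMD. Hsp90b1 per Hspa5 was 0.835 to 1.01 in Con, 0.861 to 0.878 in HMD and 1.24 to 1.28 in Bet+HMD. The ratio of these ERSE-carrying chaperones was thus higher in the Bet+HMD libraries than in all 6 others. Herpud1 per Dnajb9 overlapped between all groups, at 0.618 to 0.927 in Con, 0.684 to 1.02 in HMD and 0.745 to 0.939 in Bet+HMD. A ratio shows unequal change, not which of the pair changed. Hspa5 has 4229 bases, against 2333 for Herpud1 and 2549 for Dnajb9, so differences tied to gene length do not cancel in their ratios. The part of gene length was not tested. Other gene pairs were not examined, so no share stands beside these ratios.

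**Figure D4:**
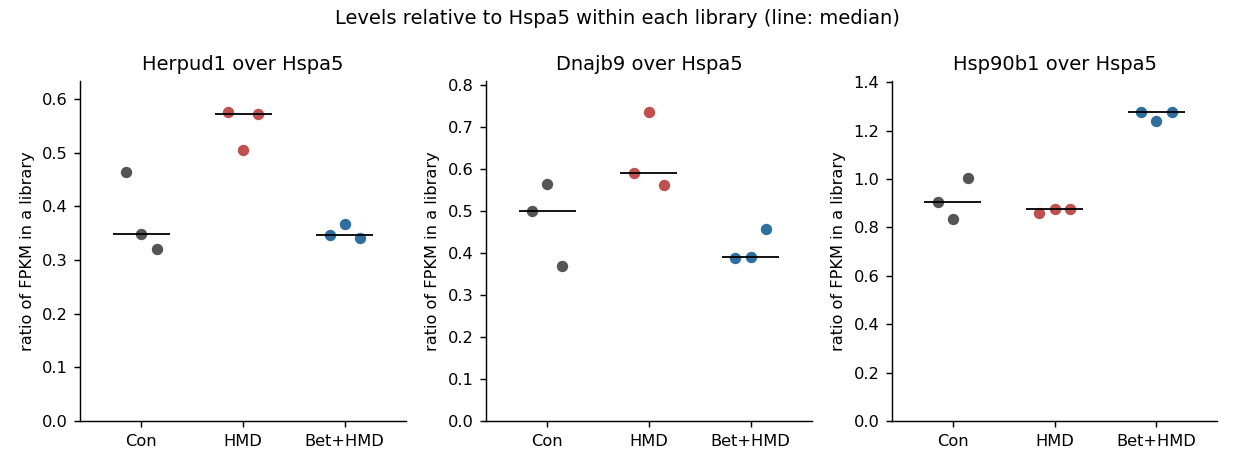
Ratio of FPKM within each library of the later table, for Herpud1, Dnajb9 and Hsp90b1 over Hspa5, on linear axes from 0. Points are samples and lines group medians (n = 3). Herpud1 over Hspa5 is 0.504 to 0.576 in HMD, above both other groups, and Hsp90b1 over Hspa5 is 1.24 to 1.28 in Bet+HMD.

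Across the 9 samples, with each group centred on its mean, the genes most like Hspa5 were Pon3 (Pearson r = 0.993), Sostdc1 (0.991), Gm28437 (0.978), Lsg1 (0.973) and Gm28661 (0.972). These are descriptions over few samples that share libraries. The members did not lead the list: Hsp90b1 ranked 335 of 13463 genes with r = 0.759, Ern1 had r = 0.516 and Herpud1 r = -0.11. Summed choroid plexus markers were 772, 2584 and 3211 FPKM in Con samples 1 to 3, and Hspa5 was 48.2, 60.0 and 57.2 FPKM in the same samples. In HMD the sums were 2582, 870 and 1942 FPKM beside Hspa5 levels of 50.5, 46.7 and 48.0 FPKM. In Bet+HMD the sums were 1214, 1192 and 939 FPKM beside Hspa5 levels of 45.2, 44.5 and 43.4 FPKM. In each group the sample with the lowest choroid plexus sum had the lowest Hspa5 level. In Con the sample with the highest sum, 3211 FPKM, did not have the highest Hspa5 level. The part of choroid plexus in the Hspa5 differences was not tested.

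Beyond the members, 88 further genes of the unfolded protein response and heat shock were examined in 5 lists, of which 81 could be tested. In HMD against Con 0 of 81 passed, and 5 had an unadjusted p under 0.05, beside 4.56% of all genes. The smallest p of each list belonged to Bax, a pore-forming promoter of apoptosis (log2 fold change -0.38), Cebpg, a C/EBP partner of ATF4 (-0.18), Pdia6, a disulfide isomerase (-0.42), Ube2j1, an ubiquitin-conjugating enzyme of the ER (0.26), and Dnajb1, a cytosolic Hsp40 (-0.36). The list labelled cytosolic heat shock also holds the mitochondrial Hspe1 and Hspd1. Its genes had a lower HMD mean in 12 of 12 cases, with a median of -0.19 against 0.00 for all genes, but 0 passed.

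Against HMD, in the Bet+HMD samples, 39 of 81 passed (48.1%), 8 higher and 31 lower, beside 48.3% of all genes. The list of ER-associated degradation and translocation, where Herpud1 belongs by function, had 11 of 22 lower and 1 higher. Sec61b, a subunit of the translocation channel, fell from 7.63 ± 0.450 to 4.05 ± 1.38 FPKM. It had 143 to 180 reads per library in HMD and 55 to 113 in Bet+HMD. Os9, a lectin that recognises misfolded glycoproteins, rose from 27.2 ± 6.73 to 43.1 ± 1.52 FPKM. The call of Os9 was lost without the first or the second Bet+HMD library, at log2 fold changes of 0.65 and 0.67. With TPM the list had 3 higher and 6 lower. Over protein-coding genes below 1500 bases, 44.4% were called lower and 8.81% higher in this comparison. The part of gene length in the results of the lists was not tested.

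Of ER chaperones and folding enzymes, 4 of 20 were higher and 5 lower, near the 22.8% higher and 25.5% lower over all genes. Ppib, a prolyl isomerase of the ER, rose from 8.95 ± 0.741 to 20.6 ± 0.727 FPKM, and Calr, the calcium-binding lectin calreticulin, from 61.6 ± 3.58 to 95.5 ± 4.62 FPKM. The BiP co-chaperones Dnajc10 and Dnajc3 fell, with log2 fold changes of -0.56 and -0.46. With TPM 9 were higher and 2 lower.

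Over all genes 25.5% were called lower and 22.8% higher. Of the regulators, 5 of 12 fell and 1 rose, and with TPM 2 were lower and 2 higher. Creb3, an ER-bound transcription factor, had a log2 fold change of -0.87, Tmbim6, an inhibitor of cell death, of -0.65, and Bak1, a pore-forming relative of Bax, of 0.69. In the PERK and integrated stress response list 5 of 15 fell and 1 rose, and with TPM 1 was lower and 4 were higher. Ddit4, an inhibitor of mTORC1, fell from 30.3 ± 2.11 to 14.6 ± 0.792 FPKM. Sesn2, a stress-induced leucine sensor, had a log2 fold change of -0.39 (-0.34 and not called without the second Bet+HMD library, -0.26 and not called with TPM), and Eif2ak4 (GCN2), the eIF2α kinase for amino acid shortage, of 0.41. Of the cytosolic heat shock list, 5 of 12 fell and 1 rose. Hspe1, a mitochondrial co-chaperonin, was at -1.01, Hspa1b, an inducible Hsp70, at -0.93 and Hsf1, the heat shock transcription factor, at 0.78. The list median was -0.30, and 0.01 with quantile normalization.

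Against Con, 31 of 81 passed (38.3%), 5 higher and 26 lower, against 39.7% of all genes. Of the cytosolic heat shock list 9 of 12 were lower and 1 higher, with a median of -0.49 against -0.04 for all genes. Hspe1 had a log2 fold change of -1.30 and Hsf1 of 0.69, and Hspa1b fell from 4.63 ± 0.885 to 1.81 ± 0.358 FPKM. With TPM 6 of the 12 were lower and with quantile normalization 5. The other lists had 3 of 12 regulators lower (Creb3 at -0.82, Bax at -0.78) and 3 of 15 PERK-branch genes lower and 1 higher (Ddit4 at -0.87, Atf5 at -0.57, Eif2ak4 at 0.47). The list of ER chaperones had 4 of 20 lower and 3 higher (Dnajc3 at -0.39, Pdia3 at -0.31 but 0.04 with quantile normalization, Calr at 0.36, Ppib at 1.13). Its lower calls went to 0 with TPM and with quantile normalization, where 4 and 2 were higher, and to 1 with median-ratio centring and with voom. Of degradation and translocation genes 7 of 22 were lower (Sec61b at -1.21, Sec61g at -1.11), and with TPM 6 were lower and 3 higher. The PERK list had 1 lower and 1 higher with TPM. The calls of Ddit4 (-0.90 to -0.83), Dnajc3 (-0.39 to -0.38), Pdia3 (-0.35 to -0.25), Calr (0.34 to 0.40) and Sec61g (-1.13 to -1.09) were each lost without any single Bet+HMD library. Those of Ddit4, Pdia3 and Calr were also lost without the first Con library, at adjusted limma p-values of 0.0612, 0.0599 and 0.0780, and that of Calr without the second, at 0.31.

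**Figure D5:**
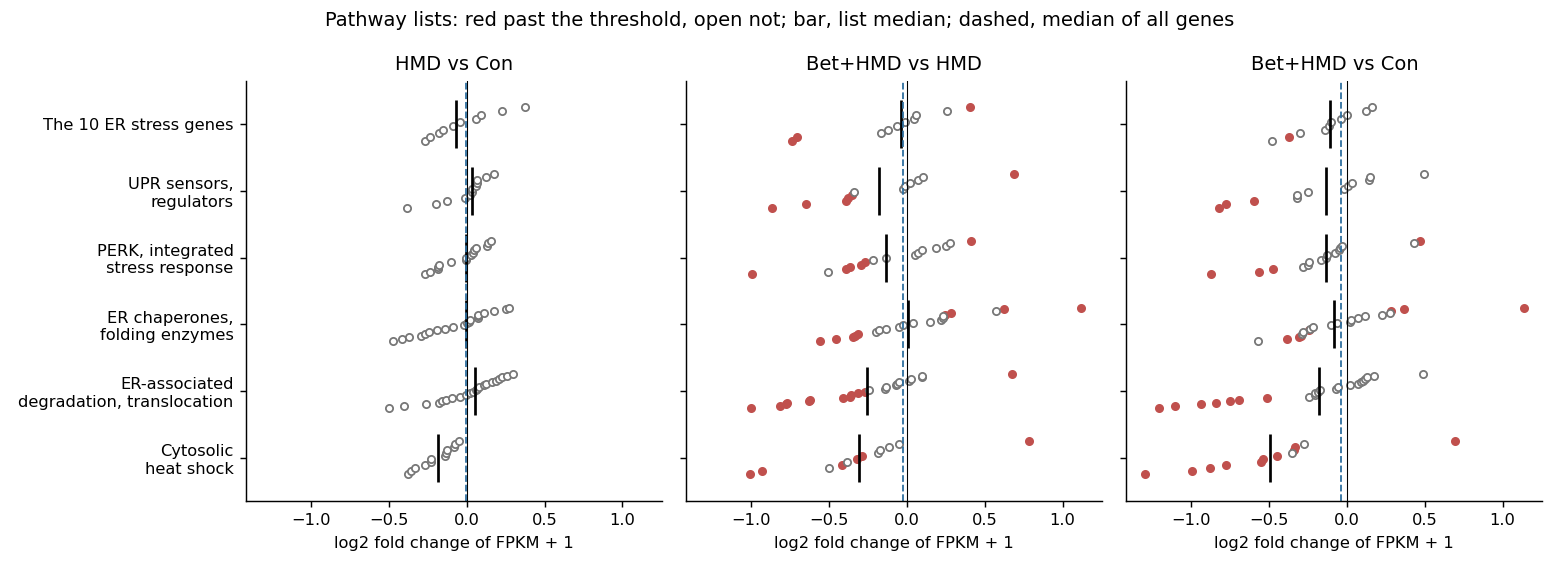
Log2 fold changes of FPKM + 1 for the 10 ER stress genes and 5 further lists in 3 comparisons. Each point is a gene, red where the adjusted limma p was under 0.05, bars mark list medians and the dashed line the median of all genes. No point is red in HMD vs Con, and in Bet+HMD vs Con 9 of 12 genes of the cytosolic heat shock list are red and lower.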

How the data were processed

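The authors aligned the reads and counted them per gene, with HISAT2 2.1.0 and featureCounts 1.5.0-p3 on build mm10 per the submitters' processing notes, and deposited FPKM values in 2 tables normalized separately, so tests stayed within a table. Columns headed COL were read as Con, an inference from the other column names. Multiplying FPKM by gene length and by a library factor gave whole reads for 100% of values (tolerance 0.01). Genes averaging 1 FPKM or more were tested on log2(FPKM + 1), pseudocount 1, with limma 3.58.1 (trend, R 4.3.3), 2 groups at a time, with Benjamini-Hochberg adjustment over all genes tested and a threshold of 0.05. Members, gene lists and tests were chosen with earlier results of these data known. Named genes were all members, per list and comparison the 2 called genes that rose most and the 2 that fell most, or the gene of smallest p where none was called, and the 5 genes most like Hspa5. A gene that this rule names is not reported here. On simulated data false calls ran above the nominal share, mainly among genes of few reads, so a filter of 50 mean reads was added after that was seen. Each member had 137 reads or more. Alternatives were another pseudocount (0.1), no filter, a filter of 5 FPKM, TPM, quantile normalization, median-ratio centring, voom on the recovered reads (0, 6801 and 5520 genes called in the 3 comparisons), all 3 groups in one fit, a replicate block, the later table and leaving out each library. With 3 samples against 3, an exact permutation test cannot go below 0.1, so none was run.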

Additional observations from a re-analysis of the deposited data

How the results depend on the processing

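In HMD against Con 0 members and 0 of the other listed genes passed under each of 11 alternatives and 6 fits without 1 library. Against HMD, 3 or 4 members passed in Bet+HMD under 10 alternatives and in the 6 fits. In Bet+HMD against Con the count of 1 became 3 with all 3 groups in one fit, 2 with the 50-read filter and 0 with the replicate block. It ran from 0 to 4 without 1 library. With TPM and with quantile normalization the count stayed at 1, but the member called was then Hsp90b1, higher, and not Herpud1. The other listed genes called there ran from 20 to 41 without 1 library; the low end came without a Bet+HMD library, and fewer samples were then fitted. Replicate numbers did not pair the samples in the betaine comparisons. Same-numbered deviations correlated there at means of -0.08 and -0.11, and 1 of 6 and 0 of 6 samples were most like their own number. In HMD against Con they correlated at -0.06, 0.35 and 0.32, and 4 of 6 samples were most like their own number, so pairing there is unsettled. No alternative, the block included, ended a call of Herpud1, Dnajb9 or Hsp90b1 in Bet+HMD against HMD.
Values that turned sign belonged to genes not past the threshold, except Pdia3. For Bet+HMD against HMD, TPM gave 0.18 for Eif2ak3, 0.02 for Atf6, 0.13 for Xbp1 and 0.07 for Hspa5, quantile normalization -0.16 for Ern1, 0.11 for Xbp1 and 0.16 for Hspa5, median-ratio centring 0.02 for Eif2ak3, and voom 0.07 for Eif2ak3 and 0.02 for Xbp1. For Bet+HMD against Con, TPM gave 0.16 for Eif2ak3, 0.11 for Atf6, 0.07 for Xbp1 and 0.10 for Atf4, quantile normalization -0.08 for Ern1, 0.04 for Xbp1, 0.14 for Atf4, 0.03 for Hspa5 and 0.04 for Pdia3, and voom 0.03 for Eif2ak3. The cause was not tested.
Without 1 library, log2 fold changes in HMD against Con ran from -0.16 to 0.09 for Eif2ak3, -0.05 to 0.15 for Atf6, -0.25 to 0.0039 for Xbp1 and -0.37 to 0.08 for Atf4. In Bet+HMD against HMD they ran from -0.0044 to 0.11 for Ern1, -0.14 to 0.10 for Eif2ak3 and -0.17 to 0.23 for Atf4, and in Bet+HMD against Con from -0.34 to 0.04 for Atf4 and -0.09 to 0.15 for Ddit3.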
